A study of Oikopleura dioica with 8 samples.

Results

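The data described here are the reads on 4 tropomyosin gene models of *Oikopleura dioica*, a small planktonic chordate of the tunicates, out of 17212 protein-coding gene models counted. The 4 were chosen by their annotation. GSOIDT00015647001, GSOIDT00006160001 and GSOIDT00015643001 carry the annotation tropomyosin alpha-1 chain, and GSOIDT00004371001 carries the annotation tropomyosin 4, all by sequence similarity in the study's supplementary annotation. The same annotation marks GSOIDT00004371001 as *trans*-spliced, that is, as an mRNA that receives a spliced leader at its 5′ end, and the other 3 as not *trans*-spliced. All 4 are marked there as absent from oocytes. The annotation could be read for 1998 gene models, and in these rows a further gene model, GSOIDT00000390001, is named tropomyosin 1. It was not among the 4 and serves as a comparison. The gene models have no coordinates or sequences in the sources used here, and 0 of the 17212 identifiers matched the RefSeq gene table of *O. dioica*.

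Tropomyosins are rod-shaped coiled-coil proteins that join end to end along actin filaments. In striated muscle, tropomyosin lies over the sites on actin to which myosin binds, and calcium binding to the troponin complex moves it away, which allows contraction. Other tropomyosin forms stabilise actin filaments outside muscle. In mammals the alpha-1 chain gene gives rise by alternative splicing to forms of striated muscle, smooth muscle and non-muscle cells, and the tropomyosin 4 gene chiefly to non-muscle forms. In *O. dioica* the main muscle is that of the tail, which beats to drive water through the filter-feeding house.

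Whole animals were sampled 30 min after release from growth arrest into normal animal density in the presence of food (release) or on day 7 of growth arrest under crowded, food-limited culture (stasis), with 2 samples of many pooled animals in each state. Density and food thus changed together and cannot be told apart. Each sample gave a library of ribosome protected fragments (RPF), which are the pieces of mRNA left after nuclease digestion because a ribosome covers them, and a library of total RNA taken from a part of its animals. The animals were cultured *O. dioica* of no stated sex, with no added agent or altered gene in either state, and all tissues can be in a sample. The libraries were run on 2 flow cells, and which library was on which is not given in the sources used here. In such bulk samples, more or fewer muscle cells and more or less RNA per muscle cell cannot be told apart.

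Total RNA libraries held 13041273 to 22839600 reads and RPF libraries 261745 to 1488886, and in each state the RPF library of replicate 2 was the smaller. Testing was limited to the 14595 gene models that reached 100 reads when the 8 libraries were added up, and all 4 tropomyosin gene models were among them. Levels are given as CPM, the reads on a gene model per 1000000 reads of the library after TMM scaling within each assay. Because a longer gene model collects more reads and no lengths were at hand, CPM is compared between libraries for 1 gene model, and not between gene models. Changes on release are log2 fold changes of release over stasis from edgeR's quasi-likelihood test, given with the standard error (SE) and a Benjamini-Hochberg adjusted p threshold of 0.05 over all gene models tested. With 2 samples a state, an exact permutation test of a single value cannot give a two-sided p below 0.333.

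Of the tropomyosin gene models, the alpha-1 chain gene model GSOIDT00015647001 rose about 3-fold in total RNA on release, and it was the only one of the 4 to pass the threshold. Its total RNA reads were 519 and 460 in release, against 148 and 107 in stasis (replicates 1 and 2). As CPM, its levels were 34.3 and 21.3 in release, against 9.92 and 7.95 in stasis. Both release libraries lay above both stasis libraries, and the log2 fold change was larger than the log2 difference between replicates, which was 0.67 in release and 0.30 in stasis. The mean was 27.8 ± 9.17 CPM in release and 8.93 ± 1.39 CPM in stasis (SD, n = 2 each), with a log2 fold change of 1.63 (SE 0.27, edgeR adjusted p = 0.0299). This change exceeded that of 99.7% of the gene models tested. Of all gene models, 9.09% were called in this comparison, 6.81% higher and 2.27% lower, 994 and 332 in number (675 and 886 with library totals, under which the median change of all gene models is -0.16 and not -0.02). Leaving out either release sample ended the call, in fits where the lone release sample is assumed to vary as the stasis pair does. Without release replicate 1 the log2 fold change of GSOIDT00015647001 was 1.25 (edgeR unadjusted p = 0.0043, adjusted p = 0.181) and without release replicate 2 it was 1.94 (edgeR unadjusted p = 0.0005, adjusted p = 0.262). In these fits edgeR called 0 of all gene models, with 1565 higher and 838 lower before adjustment in the first and 1424 higher and 524 lower in the second. With 1 model over all 8 libraries the log2 fold change of GSOIDT00015647001 was 1.63 (edgeR adjusted p = 0.0819), again with 0 gene models called (1382 higher and 626 lower at p under 0.05 before adjustment). DESeq2 with all samples called 1298 gene models higher and 454 lower, and over the 11 alternatives the adjusted p of GSOIDT00015647001 ranged from 9.5e-06 to 0.262.

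The second alpha-1 chain gene model, GSOIDT00015643001, had few reads. Its total RNA reads were 117 and 108 in release, against 54 and 18 in stasis, or 7.73 and 5.01 CPM in release, against 3.62 and 1.34 CPM in stasis. The release libraries again lay above the stasis libraries, but the stasis replicates themselves differed by 1.16 log2 units. The log2 fold change was 1.33 (SE 0.47), above that of 98.9% of gene models, and it did not pass the threshold (edgeR adjusted p = 0.127). Without stasis replicate 1 it was 2.22 and passed (edgeR adjusted p = 0.00026), and without stasis replicate 2 it was 0.79 and did not (edgeR adjusted p = 0.0583). Both fits assume that the lone stasis sample varies as the release pair does. These lie within a range of adjusted p from 0.00026 to 0.451 over the alternatives.

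The last alpha-1 chain gene model, GSOIDT00006160001, had total RNA reads of 145 and 106 in release, against 73 and 53 in stasis. Its levels were 9.58 and 4.92 CPM in release, against 4.89 and 3.94 CPM in stasis. Release replicate 2 was almost level with stasis replicate 1, so that the states were barely apart. The log2 fold change of 0.69 (SE 0.36, edgeR adjusted p = 0.251) did not pass.

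The tropomyosin 4 gene model, GSOIDT00004371001, showed the smallest difference of the 4 in total RNA. It had 1311 and 1945 reads in release, against 1335 and 993 reads in stasis. Its levels were 86.7 and 90.2 CPM in release, against 89.4 and 73.8 CPM in stasis, and the states overlapped. The log2 fold change was 0.12 (SE 0.13, edgeR adjusted p = 0.565), with a sign that flipped to -0.03 when scaled to library totals and to -0.02 without stasis replicate 2. The gene model with the most reads of the 4 was thus the one with the smallest change and the smallest SE.

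**Figure D1:**
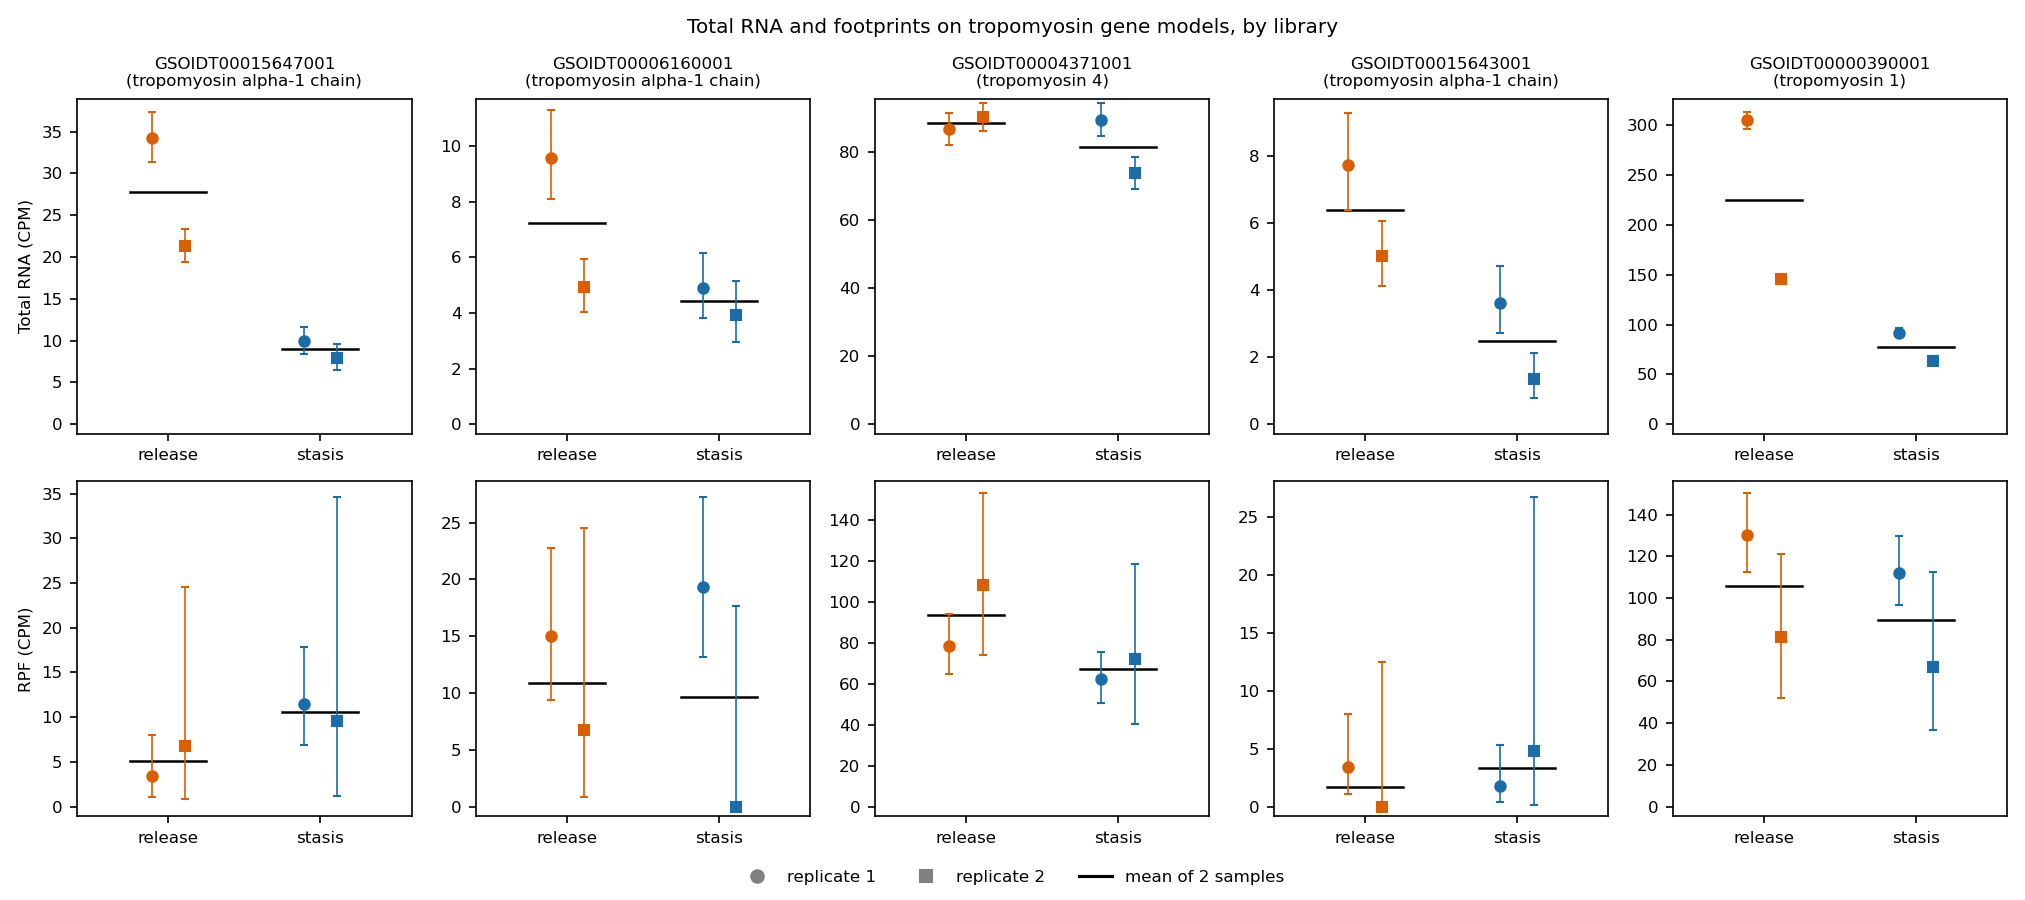
Levels of the tropomyosin gene models and of tropomyosin 1 in each library, as CPM (vertical axes, each with its own scale), for total RNA (upper row) and RPF (lower row), in release (orange) and stasis (blue). Points are single libraries with exact Poisson 95% intervals, which cover counting error only, and horizontal lines are means of 2 samples. Total RNA of GSOIDT00015647001 was 34.3 and 21.3 CPM in release, against 9.92 and 7.95 CPM in stasis, while its RPF intervals in replicate 2 reached up to 24.5 CPM in release and 34.7 CPM in stasis.

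Before adjustment, 2 of the 4 gene models had p under 0.05, both of them higher, beside 17.3% of all gene models that were higher by this measure. In all, 3 of the 4 had both release libraries above both stasis libraries in total RNA, where 31.3% of all gene models did and 31.5% had them below. With library totals it was 2 of the 4, without GSOIDT00006160001, beside 21.4% above and 46.6% below. The comparison gene model GSOIDT00000390001 (tropomyosin 1) was also separated. Its total RNA reads were 4616 and 3136 in release, against 1373 and 858 in stasis, or 305 and 145 CPM in release, against 92.0 and 63.7 CPM in stasis. Its log2 fold change of 1.53 (SE 0.37) was close in size to that of GSOIDT00015647001, but with release replicates 1.07 log2 units apart it missed the threshold (edgeR adjusted p = 0.0626). DESeq2 called it (adjusted p = 0.00033), as did the fits with a replicate block or without either stasis sample, 4 of 11 alternatives, over which its adjusted p ranged from 3.5e-05 to 0.262.

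A ratio of 2 gene models within 1 library does not depend on how libraries are scaled. For every 100 total RNA reads on the tropomyosin 4 gene model GSOIDT00004371001, GSOIDT00015647001 had 39.6 and 23.7 reads in release, against 11.1 and 10.8 in stasis. The 2 stasis samples thus had nearly the same ratio and both release samples a higher one. The ratio of GSOIDT00015643001 was 8.92 and 5.55 in release, against 4.04 and 1.81 in stasis, and that of GSOIDT00006160001 was 11.1 and 5.45 in release, against 5.47 and 5.34 in stasis. An exact two-sided permutation test gave p = 0.333 for GSOIDT00015647001, for GSOIDT00015643001 and for tropomyosin 1 (adjusted p = 0.444 over the 4 ratios tested), which is the smallest p this design allows, and p = 0.667 for GSOIDT00006160001. The ratios to tropomyosin 1 gave a different picture. GSOIDT00015647001 had 11.2 and 14.7 reads for every 100 on tropomyosin 1 in release, against 10.8 and 12.5 in stasis, so that the states overlapped. GSOIDT00004371001 had 28.4 and 62.0 in release, against 97.2 and 116 in stasis, with both release samples lower.

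The make-up of the tropomyosin reads differed accordingly between the states. GSOIDT00015647001 held 24.8% and 17.6% of the total RNA reads on the 4 gene models in release, against 9.19% and 9.14% in stasis. GSOIDT00004371001 held 62.7% and 74.3% in release, against 82.9% and 84.8% in stasis. In the RPF libraries the share of GSOIDT00015647001 was 3.40% and 5.56% in release, against 12.1% and 11.1% in stasis. The release libraries were thus the higher ones in total RNA and the lower ones in RPF. These RPF shares rest on 5 and 2 reads of GSOIDT00015647001, out of 147 and 36, in release, and on 19 and 2 reads, out of 157 and 18, in stasis. In replicate 2 its count was thus 2 in both states, while that of GSOIDT00004371001 was 32 in release and 15 in stasis.

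**Figure D2:**
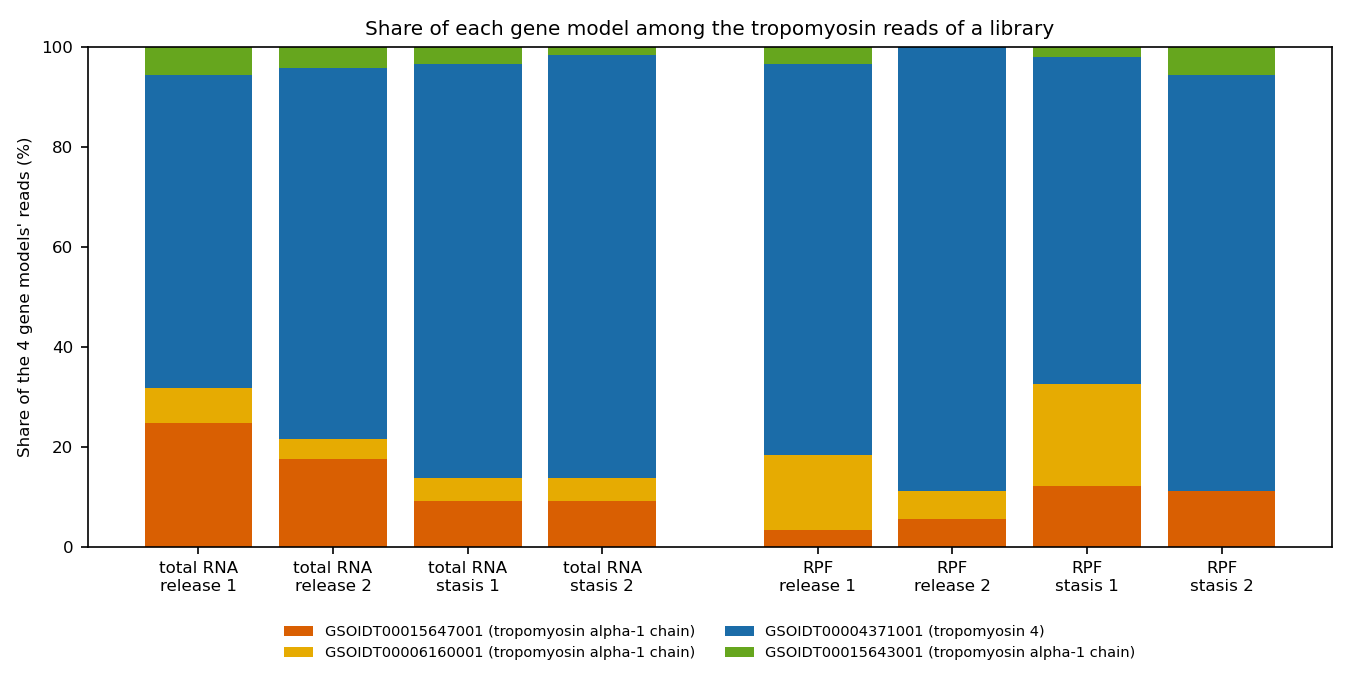
Share of each gene model among the reads on the 4 tropomyosin gene models (vertical axis, per cent), in each total RNA library (left) and RPF library (right). GSOIDT00015647001 (orange) held 24.8% and 17.6% of these total RNA reads in release, against 9.19% and 9.14% in stasis, and 3.40% and 5.56% of the RPF reads in release, against 12.1% and 11.1% in stasis. These RPF shares rest on 5 and 2 of its reads in release and on 19 and 2 in stasis.

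No change in footprints on release passed the threshold for any of the 4 tropomyosin gene models. For GSOIDT00015647001, the RPF reads were 5 and 2 in release, against 19 and 2 in stasis. As CPM they were 3.41 and 6.78 in release, against 11.5 and 9.59 in stasis. Both release libraries lay below both stasis libraries, as they did for 10.3% of all gene models, but 2 reads in replicate 2 allow 0.82 to 24.5 CPM in release and 1.16 to 34.7 CPM in stasis (exact Poisson 95% intervals, which cover counting error only). The log2 fold change in RPF was -1.21 (SE 1.54, edgeR adjusted p = 1). In RPF, edgeR called 0% of all gene models higher and 0.00685% lower, a single one, and at an unadjusted p under 0.05 it had 0.363% higher (53) and 0.74% lower (108). DESeq2 called 0. Of the 4 tropomyosin gene models 0 passed, also at the unadjusted p and by DESeq2, and 1 had a value above 0, beside 51.5% of all gene models.

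GSOIDT00006160001 had 22 and 2 RPF reads in release, against 32 and 0 in stasis. A count of 0 in stasis replicate 2 allows up to 14.4 CPM, taking 3 reads as the limit, against 19.3 CPM measured in stasis replicate 1. Its log2 fold change in RPF was -0.07 (SE 1.15, edgeR adjusted p = 1). GSOIDT00015643001 had 5 and 0 RPF reads in release, against 3 and 1 in stasis, and a log2 fold change of -0.12 (SE 2.23, edgeR adjusted p = 1). At these depths a change of several fold in either gene model was not detectable.

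GSOIDT00004371001 was the member with the most footprints, 115 and 32 reads in release, against 103 and 15 in stasis. Its levels were 78.5 and 108 CPM in release, against 62.1 and 72.0 CPM in stasis. Both release libraries lay above both stasis libraries, as they did for 12.8% of gene models, and the log2 fold change of 0.48 (SE 0.67, edgeR adjusted p = 1) did not pass the threshold. For tropomyosin 1 the RPF reads were 191 and 24 in release, against 186 and 14 in stasis, a log2 fold change of 0.22 (SE 0.64, edgeR adjusted p = 1).

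Translational efficiency (TE) is the RPF level of a gene model over its total RNA level. Length enters both levels, so that TE is less bound to length than CPM. The translated part of each gene model and the treatment of multiply mapping reads are not known here, which limits a comparison of TE between gene models. The TE of GSOIDT00015647001, as CPM over CPM, was 0.0995 and 0.318 in release, against 1.16 and 1.21 in stasis. Both release samples lay below both stasis samples, as they did for 12.2% of the 14591 gene models with total RNA reads in every sample. In replicate 1 the exact binomial 95% intervals, which cover counting error only, were 0.0322 to 0.234 in release and 0.677 to 1.87 in stasis, and did not overlap. In replicate 2 they did, with 0.0384 to 1.16 in release and 0.144 to 4.47 in stasis. The log2 change in TE was -3.10 (SE 0.81), with an unadjusted p of 0.00221, and 3.19% of gene models had a lower value. Adjusted over all gene models it did not pass (edgeR adjusted p = 0.820). This fit does not use that both libraries of a sample come from the same pool of animals. With the sample as a block the log2 change was -2.94 (SE 1.53) with an unadjusted edgeR p of 0.0556. In this test edgeR called 0 of all gene models (0% of those tested), and at an unadjusted p under 0.05 it had 2.45% higher (357) and 3.5% lower (511). DESeq2 had 3 higher and 21 lower calls. It adjusted p for only 5257 gene models, which did not include GSOIDT00015647001, GSOIDT00006160001 and GSOIDT00015643001, so that these could not be called. Over the alternatives the log2 change in TE of GSOIDT00015647001 lay between -3.65 and -1.66, with adjusted p from 0.122 to 1.

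None of the other TE changes passed the threshold. GSOIDT00006160001 had a TE of 1.57 and 1.38 in release, against 3.95 in stasis replicate 1 and 0 in stasis replicate 2, where 3 reads would give 3.66. Its log2 change was -0.98 (SE 0.82, edgeR adjusted p = 0.868). GSOIDT00015643001 had a TE of 0.441 and 0 in release, against 0.50 and 3.59 in stasis. The value of 3.59 rests on 1 RPF read and 18 total RNA reads, and the log2 change was -0.97 (SE 1.45, edgeR adjusted p = 0.949). GSOIDT00004371001 had a TE of 0.906 and 1.2 in release, against 0.695 and 0.976 in stasis, and a log2 change of 0.35 (SE 0.48, edgeR adjusted p = 0.937), the only value above 0 among the 4. For all gene models 48.7% of the changes in TE lay above 0. Tropomyosin 1 had a TE of 0.427 and 0.560 in release, against 1.22 and 1.05 in stasis, so that both release samples were lower (log2 change -1.32, SE 0.64, edgeR adjusted p = 0.820).

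**Figure D3:**
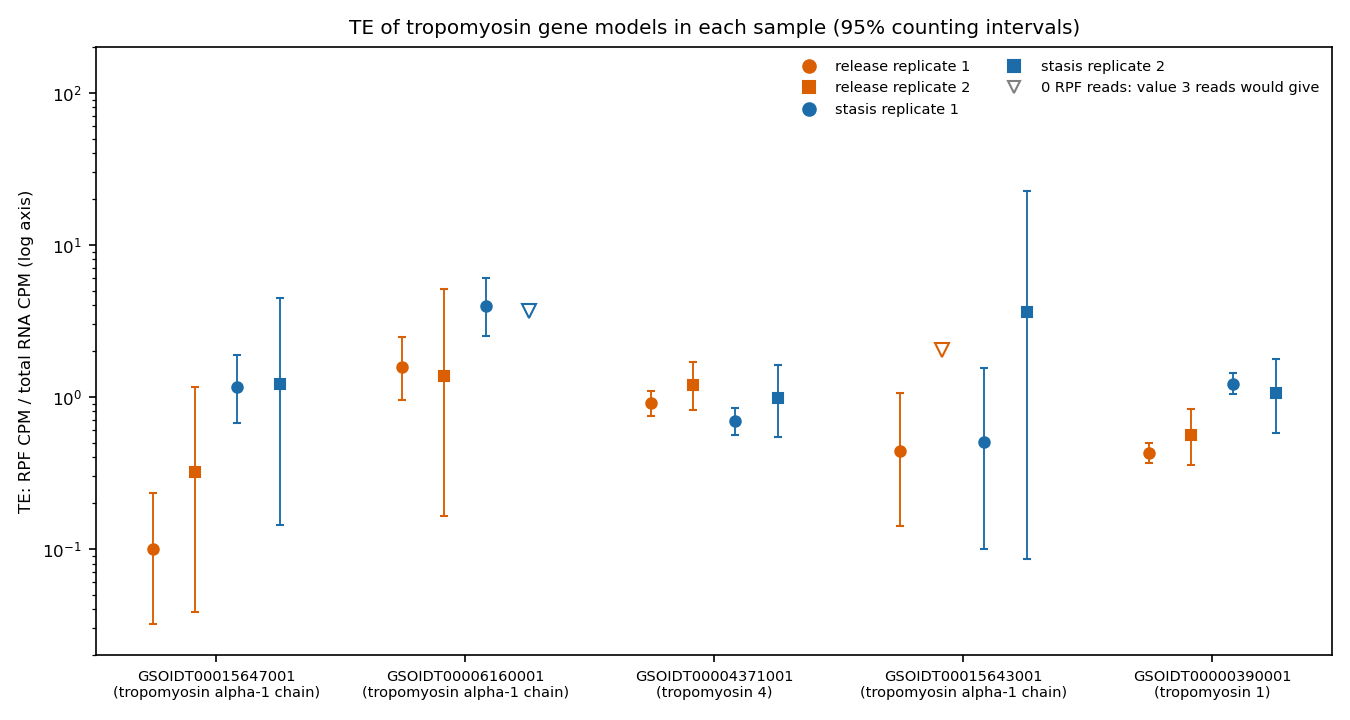
TE of each gene model (vertical axis, log scale, RPF CPM over total RNA CPM) in each release (orange) and stasis (blue) sample. Bars are exact binomial 95% intervals of counting error, and open triangles stand at the value that 3 reads would give where a library had 0 RPF reads. GSOIDT00015647001 had a TE of 0.0995 and 0.318 in release, against 1.16 and 1.21 in stasis.

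Ordered by mean TE in release, GSOIDT00006160001 came first with 1.47 ± 0.13, followed by GSOIDT00004371001 with 1.05 ± 0.21, GSOIDT00015643001 with 0.221 ± 0.312 and GSOIDT00015647001 with 0.209 ± 0.155 (SD, n = 2 each). The samples of GSOIDT00006160001 lay above those of GSOIDT00004371001, and these above those of GSOIDT00015643001, while GSOIDT00015643001 and GSOIDT00015647001 overlapped. By counting error alone fewer could be told apart. In replicate 1 the interval of GSOIDT00015647001, 0.0322 to 0.234, lay below those of GSOIDT00006160001, 0.952 to 2.46, and GSOIDT00004371001, 0.742 to 1.10, the other intervals overlapped, and in replicate 2 all did. In stasis the means were 2.04 ± 2.18 for GSOIDT00015643001, 1.97 ± 2.79 for GSOIDT00006160001, 1.18 ± 0.0361 for GSOIDT00015647001 and 0.835 ± 0.198 for GSOIDT00004371001. There, GSOIDT00015643001 and GSOIDT00006160001 could not be ordered, since each had a sample with 1 or 0 RPF reads. The ranges of GSOIDT00015647001 and GSOIDT00004371001 did not overlap between samples, but their counting intervals did, with 0.677 to 1.87 against 0.563 to 0.850 in replicate 1 and 0.144 to 4.47 against 0.544 to 1.62 in replicate 2. Over all gene models, the median TE was 0.417 and 0.325 in release and 0.430 and 0.257 in stasis. GSOIDT00004371001 was above this median in all 4 samples. GSOIDT00015647001 was above it in both stasis samples, where 85.3% and 88.1% of gene models had a lower TE. In release it was below the median in replicate 1, where 11.8% had a lower TE, and close to it in replicate 2, where 49.3% did (0.318 against 0.325). Both replicate 2 values of GSOIDT00015647001 rest on 2 RPF reads, with counting intervals that take in the median.

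Whether a gene model carried more or fewer footprints than the typical one was tested within each state, as RPF against total RNA with TMM factors over all 8 libraries. As in the TE fit without a block, this fit does not use that both libraries of a sample come from the same pool of animals. No alternative for this contrast had the sample as a block, so that its p-values were not checked for this pairing. In stasis, GSOIDT00006160001 had more footprints than its total RNA gives for the typical gene model, with a log2 ratio of 2.87 (SE 0.62, edgeR adjusted p = 0.0110). It was the only call among the 4, beside 8.19% of all gene models called higher and 9.58% called lower (17.8% in all). All 4 had values above 0, beside 44.2% of gene models, and 2 were higher at an unadjusted p under 0.05, beside 15.0% higher and 20.5% lower. This call rested on the 32 RPF reads of stasis replicate 1. Without that sample, when 0 RPF reads were left in stasis, the fitted value was negative and did not pass (edgeR adjusted p = 0.708). The gene model passed in 9 of 10 alternatives, over which its adjusted p ranged from 0.0017 to 0.708. In release its log2 ratio was 1.95 (SE 0.64, edgeR adjusted p = 0.0587).

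The log2 ratio of GSOIDT00015647001 was -1.72 in release (SE 0.63, edgeR adjusted p = 0.0821) and 1.33 in stasis (SE 0.52, edgeR adjusted p = 0.0917), so that it lay on different sides of the typical gene model without passing on either. With factors within each assay it passed as lower in release (log2 ratio -2.78, edgeR adjusted p = 0.0032), as it did with library totals, where it was -2.53 (edgeR adjusted p = 0.0118). Factors within each assay do not set RPF and total RNA on 1 scale. The median TE of all gene models was then 0.417 and 0.325 in release, so that the typical gene model itself lay below 0 on the log2 scale. With library totals, too, most calls in release were lower, as given below. These passes are thus not measured against the typical gene model. Over all alternatives the adjusted p in release ranged from 0.0032 to 0.827. The ratio of GSOIDT00004371001 was 1.11 in release (SE 0.35, edgeR adjusted p = 0.0512, DESeq2 adjusted p = 0.0079, range over the alternatives 0.0054 to 0.936) and 0.67 in stasis (SE 0.36, edgeR adjusted p = 0.199). That of GSOIDT00015643001 was -0.11 in release and 0.80 in stasis, with standard errors of 0.94 and 1.13. In release, 0 of the 4 were called, while 7.92% of all gene models were called higher and 6.89% lower (14.8% in all), 1156 and 1006 in number. There 2 of the 4 lay above 0, beside 43.5% of gene models, and before adjustment 2 of the 4 had p under 0.05 as higher and 1 as lower, beside 15.3% and 18.0%. The numbers called were 1195 higher and 1398 lower in stasis. The split depends on how RPF and total RNA libraries are set on 1 scale. With library totals it was 336 higher and 4401 lower in release, and 286 and 5898 in stasis.

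**Figure D4:**
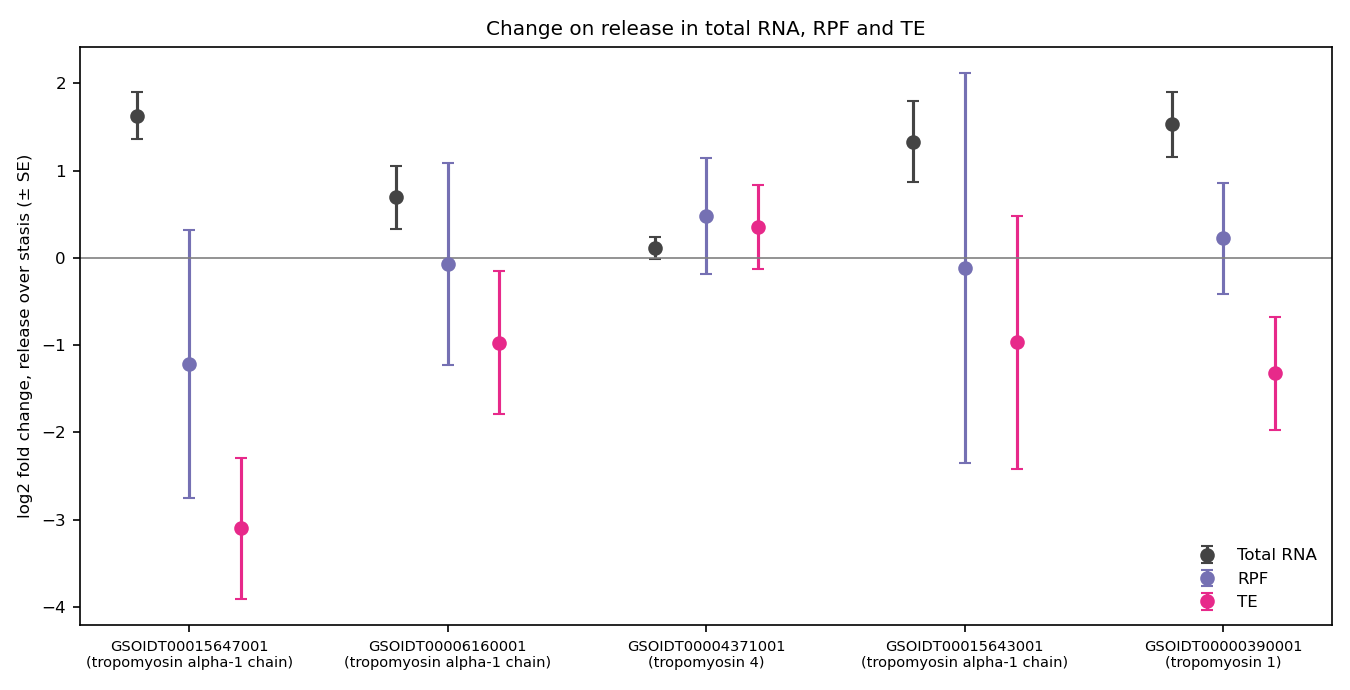
Log2 fold change of release over stasis (vertical axis, ± standard error from edgeR) in total RNA (grey), RPF (violet) and TE (pink) for each gene model. GSOIDT00015647001 had 1.63 in total RNA, -1.21 in RPF and -3.10 in TE, and its total RNA change was the only one of those plotted to pass an adjusted p of 0.05.

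Reads that fit several tropomyosin copies can be divided among them or dropped when they are counted, and how such reads were treated is not given in the sources used here. The sum over the 4 gene models does not depend on how such reads were divided among these 4. It can still depend on reads shared with tropomyosin 1 or with copies not listed, and on reads that were dropped. A sum over fewer of the 4 also depends on reads shared with the rest. The 4 together had 132 and 115 total RNA reads per 1000000 library reads (RPM, with no TMM factor) in release, against 116 and 89.8 in stasis, so that the states overlapped. With TMM factors the sums were 138 and 121 CPM in release, against 108 and 87.0 CPM in stasis, and did not overlap. The mean without them was 124 ± 12.5 RPM in release and 103 ± 18.2 RPM in stasis (SD, n = 2 each). In RPF the sum was 118 and 117 RPM in release, against 105 and 68.8 RPM in stasis. GSOIDT00004371001 holds most of these reads. The 3 alpha-1 chain gene models alone, a sum added after the data were seen, had 49.4 and 29.5 total RNA RPM in release, against 19.7 and 13.7 in stasis. Both release libraries were higher, with a log2 ratio of means of 1.24, while their summed RPF reads were 32 and 4 in release, against 54 and 3 in stasis. The TE of this sum was 0.423 and 0.434 in release, against 1.77 and 1.09 in stasis. In replicate 1 its exact binomial 95% interval was 0.287 to 0.602 in release and 1.30 to 2.38 in stasis, and in replicate 2 it was 0.118 to 1.12 in release and 0.222 to 3.23 in stasis, so that the states were apart in replicate 1 and overlapped in replicate 2. No p-value was taken for these sums.

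Tropomyosin works together with the other proteins of the thin and thick filaments, whose gene models were listed by annotation in the rows that could be read. These rows are the top of a table ordered by the response to mTOR inhibition in another experiment of the study, so the lists are neither complete nor a random draw. The thin filament list held tropomyosin 1, alpha actin (the filament itself), a troponin and troponin C (the calcium switch) and a nebulin-like protein (nebulin runs along the thin filament of vertebrate muscle). Of its 5 gene models 4 were tested, 0 were called in total RNA, and 4 had a log2 fold change above 0, with a median of 1.04 beside -0.02 for all gene models tested, of which 48.1% lay above 0, and 3 were higher at an unadjusted p under 0.05, the same number that DESeq2 called (17.3% and 9.44% over all gene models). For the 4 tropomyosin gene models the median was 1.01, with 4 above 0 and 1 called. The troponin gene model GSOIDT00007476001 had 13.3 ± 4.89 CPM in release and 5.61 ± 2.58 CPM in stasis (log2 fold change 1.23, SE 0.39, edgeR adjusted p = 0.106). The nebulin-like GSOIDT00009694001 had 128 ± 55.4 CPM in release and 71.4 ± 2.12 CPM in stasis (log2 fold change 0.85, SE 0.29, edgeR adjusted p = 0.120). Alpha actin (GSOIDT00000757001) had 3.66 ± 0.907 CPM in release and 3.46 ± 0.694 CPM in stasis, a log2 fold change of 0.06, close to that of tropomyosin 4. The gene model annotated as troponin C, GSOIDT00010799001, had 47 reads over the 8 libraries and was not tested.

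The thick filament list (myosin heavy chains, a regulatory light chain and myosin-binding protein C) had 10 of 10 gene models above 0 in total RNA, with a median of 1.08 on the log2 scale, 0 called by edgeR, 6 higher at an unadjusted p under 0.05 (17.3% over all gene models) and 4 called higher by DESeq2 (9.44% of the gene models with an adjusted p there). Its gene model with the most total RNA, the embryonic muscle myosin heavy chain GSOIDT00010986001, had a log2 fold change of 1.11 (SE 0.42, edgeR adjusted p = 0.144). The muscle list of calcium storage and energy supply (calsequestrin, creatine kinase M and myosin light chain kinase) had a median of 0.08, with 2 of 4 above 0 and 0 called by edgeR or DESeq2. At an unadjusted p under 0.05, 1 was lower, beside 1892 of the 14595 gene models tested. Its most abundant gene model, a creatine kinase (GSOIDT00014220001), had a log2 fold change of 0.21 (SE 0.18). Over the 3 lists together, the 18 gene models tested ranged from -0.76 to 1.85 in total RNA. In TE the median log2 change was -0.26 for the thin filament list, 0.05 for the thick filament list and -0.49 for the calcium and energy list, beside -0.97 for the 4 tropomyosin gene models and -0.03 for all gene models, with 0 called in each of these lists by edgeR. DESeq2 gave an adjusted p to 1 of the 4 tropomyosin gene models and to 2, 9 and 0 gene models of these lists, and called 0. In the edgeR test without a sample block, TE was lower at an unadjusted p under 0.05 for 1 thick filament gene model and for GSOIDT00015647001.

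**Figure D5:**
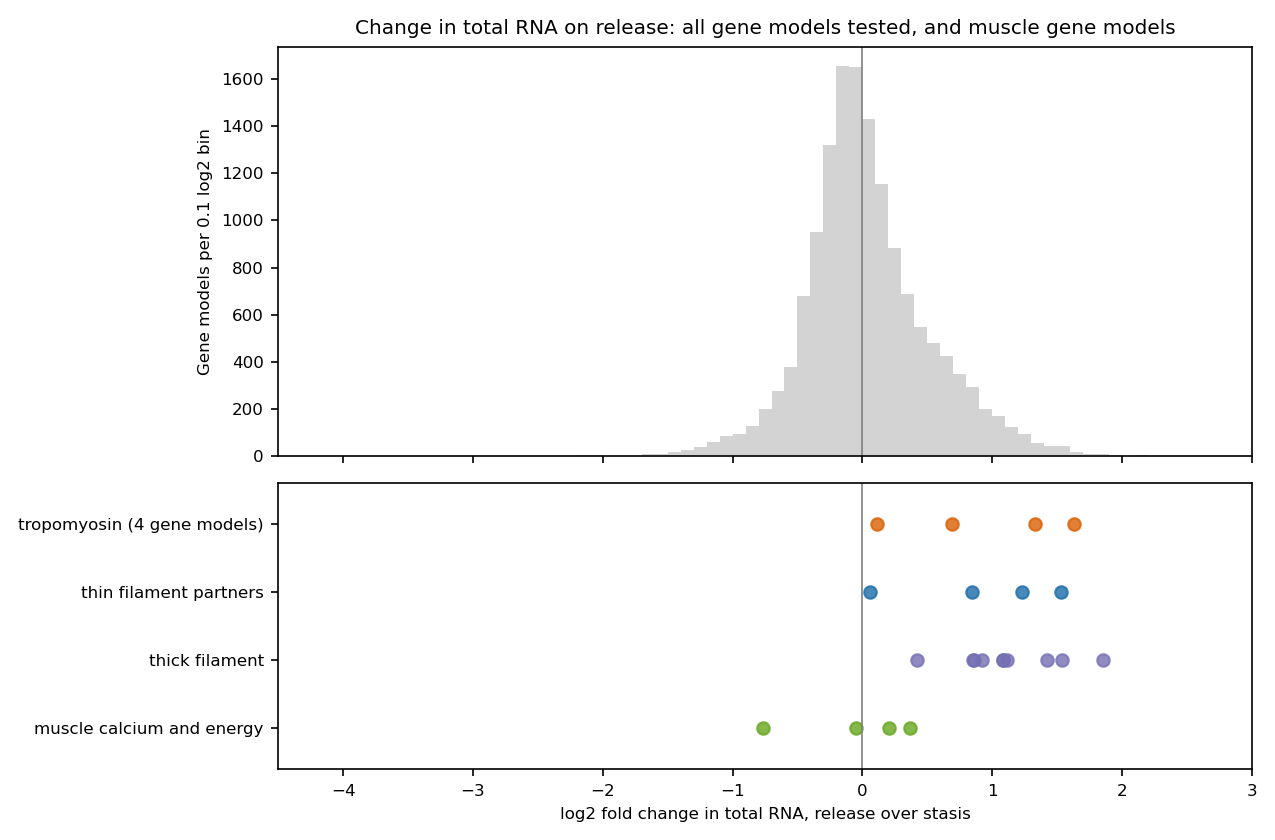
Log2 fold change of total RNA, release over stasis (horizontal axis), as a histogram of the 14595 gene models tested (upper panel, gene models per 0.1 log2 unit) and as points for the 4 tropomyosin gene models and the other muscle lists (lower panel, 1 point per gene model). The 4 tropomyosin gene models lay between 0.12 and 1.63, the thick filament gene models between 0.42 and 1.85, and the calcium and energy gene models between -0.76 and 0.37.

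Release replicate 1 stood apart in the RNA of the filament lists. The summed level of the thick filament list was 5231 and 2151 CPM in release, against 1551 and 1805 CPM in stasis. Release replicate 1 was the higher release sample for 10 of its 10 gene models. It was so for 3 of the 4 tropomyosin gene models, 4 of 5 of the thin filament list and 2 of 4 of the calcium and energy list. In the further lists below it was 5 of 12 house proteins, 3 of 5 gut proteases and 5 of 12 of the sperm and testis list. The share over all gene models was not counted, so that 3 of 4 shows no shared pattern by itself. The summed thin filament list had 494 and 248 CPM in release, against 177 and 141 CPM in stasis. The calcium and energy list did not share this, with 39.3 and 43.4 CPM in release, against 36.3 and 40.9 CPM in stasis. Without release replicate 1 the log2 fold change in total RNA was 1.25 for GSOIDT00015647001, 0.90 for tropomyosin 1 and 0.15 for GSOIDT00006160001. Further lists, picked by words in the annotation that name other tissues or products, were set beside these. Which cells of the animals carried these RNAs was not tested. The house proteins (oikosins, secreted by the epithelium that builds the filter-feeding house) had a summed level of 9231 and 8754 CPM in release, against 6479 and 7107 CPM in stasis, with 5 of 11 tested called higher (6.81% over all gene models), a median log2 fold change of 0.80, and 0.16 for the most abundant, GSOIDT00014788001. The gut proteases had 167 and 166 CPM in release, against 160 and 138 CPM in stasis, with 0 called higher (2 before adjustment) and 1 lower (1 before adjustment), a median of 0.08, and 0.08 for the most abundant, GSOIDT00009434001. The sperm and testis list had 270 and 274 CPM in release, against 276 and 359 CPM in stasis, with 0 called higher (0 before adjustment) and 1 lower (4 before adjustment), a median of -0.43, and 0.11 for the most abundant, GSOIDT00003222001. Of the 14595 gene models tested, 2525 were higher and 1892 lower before adjustment, and 2.27% were called lower. In TE the house protein list had a median log2 change of -0.84, beside -0.97 for the 4 tropomyosin gene models and -0.03 for all gene models. Of its 11 gene models tested, 2 lay above 0, 0 were called by edgeR and 2 were lower at an unadjusted p under 0.05 (3.5% over all gene models). The median in TE was 0.28 for the gut proteases and 0.44 for the sperm and testis list. The part of such shifts in the tropomyosin values was not tested.

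The gene models most like each tropomyosin gene model were sought over the 8 libraries, as the smallest root mean square difference in log2(CPM + 0.5), centred within each assay. Among the 3 nearest to GSOIDT00015647001, the first was GSOIDT00006398001, annotated as procollagen C-endopeptidase enhancer 2 (in vertebrates a secreted protein that promotes the trimming of procollagen), at a difference of 0.33 log2 units. It had 3008 and 4125 total RNA reads in release, against 1540 and 1241 in stasis, and 85 and 22 RPF reads in release, against 240 and 18 in stasis. These are reads as counted, not scaled to library size, and more than those on the tropomyosin gene model in every library. The next were GSOIDT00009687001 at 0.35 and GSOIDT00004201001 at 0.35, neither of them in the annotation rows read. The nearest to GSOIDT00004371001 were GSOIDT00001790001 at 0.04, GSOIDT00005703001 at 0.06 and GSOIDT00005064001 at 0.06. Those of GSOIDT00006160001 were GSOIDT00008510001 at 0.21, GSOIDT00008567001 at 0.22 and GSOIDT00006006001 at 0.23, all with 0 RPF reads in stasis replicate 2. Those of GSOIDT00015643001 were GSOIDT00014296001 at 0.22, GSOIDT00016763001 at 0.29 and GSOIDT00013448001 at 0.32, all with 0 RPF reads in release replicate 2. None of these is named in the annotation rows read. The tropomyosin gene models were not each other's nearest. From GSOIDT00015647001 the difference was 0.63 to tropomyosin 1, with 3.99% of gene models closer, 0.77 to GSOIDT00004371001, 1.06 to GSOIDT00015643001 and 1.72 to GSOIDT00006160001, beside a median of 1.02 over all gene models.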

How the data were processed

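The authors removed rRNA and tRNA reads with Bowtie2 2.1.0, mapped the rest with TopHat2 2.0.13 on Genoscope gene models, and used featureCounts to assign them to genes (versions from the submitters' processing notes). The deposited values are raw counts per gene model. All count columns were matched to a sample (0 unmatched). The sources used here do not give the genome build, the strand setting or what was done with multiply mapping reads.

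The members and gene lists were chosen with earlier results of these data known. The tested gene models, with the authors' minimum of 100 reads in all, held 99.9% of reads. Library depths are given in the report. Total RNA, RPF and TE (interaction of state and assay) were tested with edgeR 4.0.16 in R 4.3.3, with TMM factors within each assay, and RPF against total RNA with TMM factors over 8 libraries. The SE is the size of the log2 change divided by the square root of F. The babel package named in the methods was not used. Named were the 4 members, tropomyosin 1, the thin filament list, the gene model with the most total RNA reads of each other list, and the 3 nearest by pattern. Alternatives used DESeq2 1.42.0, limma 3.58.1, other scalings, filters, blocks and left-out samples. Replicate libraries differed by more than sampling noise. The labels' design text calls the samples biological replicates. The scripts were tested on simulated data.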

Additional observations from a re-analysis of the deposited data

How the results depend on the processing

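Without each sample in turn, the number of gene models called ranged from 0 to 4784 in total RNA (1326 with all samples), from 0 to 39 in RPF (1), from 0 to 170 in TE (0), from 0 to 4332 for RPF against total RNA in release (2162) and from 180 to 4512 in stasis (2593). Of the 4 tropomyosin gene models, 0 to 2 were then called in total RNA (1 with all samples), 0 to 2 for RPF against total RNA in release (0), 0 to 1 in stasis (1), and 0 in RPF and TE.

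With 1 model over all 8 libraries, 0 gene models were called in total RNA and 0 in RPF. Library totals, DESeq2, no filter, and at least 10 reads in every library each gave 0 in RPF. DESeq2 called 24 in TE, where the other alternatives with all samples called 0. For RPF against total RNA, library totals called 4737 in release and 6184 in stasis, factors within each assay called 7233 and 6841, and the minimum of 10 reads, which leaves 1804 gene models, called 467 and 415. Of the tropomyosin gene models, 1 was called in release under library totals (GSOIDT00015647001), DESeq2 (GSOIDT00004371001) and factors within each assay (GSOIDT00015647001), and 0 in stasis under the minimum of 10 reads, which GSOIDT00006160001 does not reach.

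Replicate numbers are shared between the states, but nothing says that they mark shared animals. Across gene models, replicate 1 minus replicate 2 correlated between the states with r = 0.198 in total RNA and r = 0.146 in RPF. With a replicate block, 1646 gene models were called in total RNA, 1 in RPF, 0 in TE, 1661 for RPF against total RNA in release and 1906 in stasis, and 2 tropomyosin gene models were called in total RNA, GSOIDT00015647001 and GSOIDT00015643001.

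Changes with another sign than in the report were as follows, none past the threshold. In total RNA, GSOIDT00004371001 was at -0.0327 with library totals, and between -0.0208 and 0.26 without single samples. In RPF, GSOIDT00006160001 was at 0.0076 with library totals, 0.0552 with DESeq2 and 0.19 with a replicate block, and between -0.78 and 6.00 without single samples. GSOIDT00015643001 was at 0.0635 with library totals and 0.36 in the model over 8 libraries, and between -3.94 and 0.44 without single samples, and tropomyosin 1 (GSOIDT00000390001) was between -0.17 and 0.68. In TE, GSOIDT00006160001 was at 1.30 and 0.21 with limma (pseudocounts of 0.5 and 5 RPM), and between -1.34 and 9.0 without single samples. For RPF against total RNA in release, tropomyosin 1 was at -0.85 with library totals, -0.0199 with RLE factors, -0.0349 with DESeq2, -0.0432 without a filter, -0.28 with at least 10 reads and -1.04 with factors within each assay, and between -0.17 and 0.23 without single samples. In stasis, with library totals and with factors within each assay, GSOIDT00004371001 was at -0.42 and -0.32 and GSOIDT00015643001 at -0.20 and -0.20, and GSOIDT00006160001 was between -8.13 and 3.0 without single samples. Values of this size come from libraries with 0 reads and are no bounds.

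For the summed reads of the 4 gene models (log2 of release over stasis 0.27 in total RNA, 0.43 in RPF and 0.17 in TE), adding tropomyosin 1 gave 0.87 in total RNA and -0.47 in TE, the 3 alpha-1 chain gene models alone gave 1.24, -0.30 and -1.54, and TMM scaling gave -0.12 in TE. Depth limits the RPF values of the alpha-1 chain gene models, with 0 to 32 reads a library.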
